A study of Homo sapiens with 6 samples.

Results

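The miR-23, miR-27 and miR-24 clusters were followed in HuCCT1 cells, an established human cholangiocarcinoma (CCA) cell line that the labels spell HuccT1, through 8 probes that were chosen by name from the 2555 human miRNA probes of the arrays. The 8 members are hsa-miR-23a-3p, hsa-miR-23b-3p, hsa-miR-27a-3p, hsa-miR-27b-3p and hsa-miR-24-3p, which come from the 3′ arms of their hairpins, and hsa-miR-23a-5p, hsa-miR-27a-5p and hsa-miR-24-2-5p, which come from the 5′ arms. Each of 6 microRNA arrays of 1 colour carried the labelled total RNA of 1 sample: 3 control samples without TGF-β (0 ng/ml) and 3 samples with TGF-β at 10 ng/ml, all from unmodified cells of 1 line and all at 72 h. TGF-β is a cytokine that induces epithelial-mesenchymal transition (EMT), and the comparison asks which miRNAs differ in level between treated and untreated cells. The labels do not say that the replicates were separate cultures, so p-values measure the spread between these samples, which may be technical, and 3 arrays in a group limit the precision of every value.

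A miRNA cluster is a group of hairpins that are cut out of 1 primary transcript, after which each hairpin can give a mature strand from either arm. The human genome carries the trio of miR-23, miR-27 and miR-24 in 2 copies, one in a non-coding host transcript and one within a protein-coding gene. A mature miRNA pairs with target mRNAs mainly through its seed, bases 2 to 8 from its 5′ end, so that miRNAs with the same seed are grouped in 1 family. The trio is known from work on endothelial cells, muscle, lymphocytes and epithelial cancers, in which components of TGF-β signalling are among the targets that have been described for its members.

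All 8 members were found in the RefSeq sequence table (GRCh38.p14). The mature sequences of the 5 members from the 3′ arms are shown first, since they show which probes have near-identical targets and which share a seed. They are written 5′ to 3′ with the seed in capitals.
miR-23a-3p: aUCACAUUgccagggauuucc
miR-23b-3p: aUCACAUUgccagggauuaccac
miR-27a-3p: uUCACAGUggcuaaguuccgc
miR-27b-3p: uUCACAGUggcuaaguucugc
miR-24-3p: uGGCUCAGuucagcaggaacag

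MiR-23a-3p and miR-23b-3p share the seed UCACAUU, miR-27a-3p and miR-27b-3p share UCACAGU, and miR-24-3p has GGCUCAG. With positions counted from 1 at the 5′ end, miR-23a-3p and miR-23b-3p were identical at 20 of 21 bases, with the substitution U19A, and miR-23b-3p was longer by 2 bases at its 3′ end. MiR-27a-3p and miR-27b-3p were identical at 20 of 21 bases, with C19U. Whether the probe of one paralog also binds the other was not tested. The mature miR-24-3p has the same letters at both of its loci, so its single probe sums both clusters and cannot tell them apart.

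The 3 members from the 5′ arms are all named for the cluster on chromosome 19, and each has a seed that no other member carries.
miR-23a-5p: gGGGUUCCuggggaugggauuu
miR-27a-5p: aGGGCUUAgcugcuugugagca
miR-24-2-5p: uGCCUACUgagcugaaacacag

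In GRCh38.p14, the hairpins MIR23A, MIR27A and MIR24-2 lie in this order on the minus strand at chr19:13836287-13836659, a span of 373 bases within the non-coding host gene MIR23AHG. There, miR-23a-3p lies at chr19:13836595-13836615, miR-27a-3p at chr19:13836447-13836467 and miR-24-3p at chr19:13836289-13836310. The hairpins MIR23B, MIR27B and MIR24-1 lie in the same order on the plus strand at chr9:95085208-95086088, a span of 881 bases within the gene AOPEP, which encodes an aminopeptidase. There, miR-23b-3p lies at chr9:95085265-95085287, miR-27b-3p at chr9:95085505-95085525 and miR-24-3p at chr9:95086064-95086085.

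**Figure D1:**
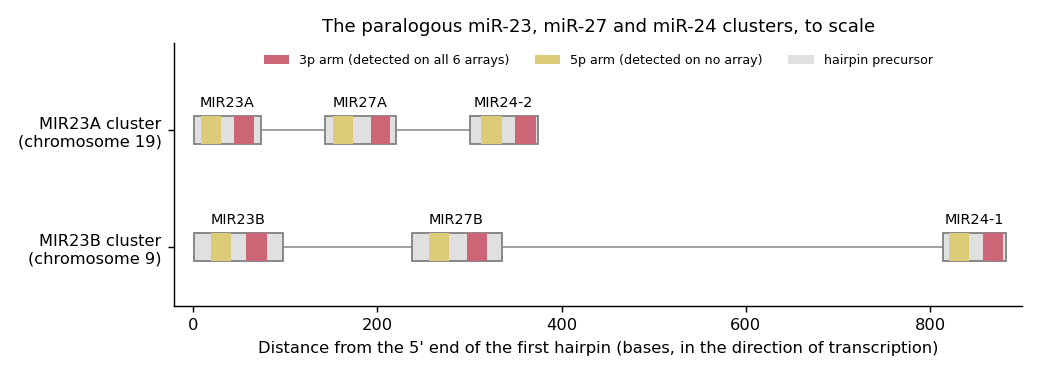
Map of the 2 clusters to scale, with the distance from the 5′ end of the first hairpin in bases on the x axis; grey boxes are hairpins, red boxes the mature 3p arms and yellow boxes the mature 5p arms. The order is the same in both, the MIR23A cluster spans 373 bases and the MIR23B cluster 881, and every 3p arm was detected on all 6 arrays while no 5p arm was detected on any.

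Detection on an array required a brightness over 2 SD above the average of its 229 blank spots, and signals were scaled so that the 292 probes detected on all 6 arrays had a median of 25 on each, which is the unit of the normalized signal below. Between 327 and 464 human probes were detected per array, and the 323 miRNAs that every array of the control group, the TGF-β group or both detected are called expressed. Of the markers listed for epithelial cells, 5 of 6 were detected on all 6 arrays, whereas the hepatocyte marker miR-122-5p, 4 of 5 blood cell markers and 5 of 5 stromal markers were detected on none; the remaining blood cell marker, miR-223-3p, was detected on TGF-β array 3 alone, at 12.4. By the barcodes in the scanner output, the 3 control arrays and TGF-β array 1 came from 1 chip, while another held TGF-β arrays 2 and 3.

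The clusters were present in HuCCT1 cells as their 3′ arms. The 5 members from the 3′ arms lay between 22.0 and 398 SD of the blank spots above the mean of the blank spots on every array. The 3 members from the 5′ arms lay between -3.34 and 0.115 SD from that mean and were detected on none of the 6 arrays, in either group, so they entered no test. A level under this limit is not detectable here and is not shown to be absent. The other 5′ arms of the clusters, miR-23b-5p, miR-27b-5p and miR-24-1-5p, were detected on no array either, at -3.81 to -1.32 SD.

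MiR-23a-3p, the first miRNA of the MIR23A cluster, had normalized signals of 282, 330 and 285 on control arrays 1, 2 and 3 and of 441, 416 and 410 on TGF-β arrays 1, 2 and 3. All 3 TGF-β arrays lay above all 3 control arrays, including the TGF-β array that shared the chip of the controls. The means were 299 ± 26.9 (SD, n = 3) in control cells and 422 ± 16.5 (SD, n = 3) with TGF-β, a ratio of 1.41. On the log2 scale the difference was 0.50 (SE 0.18, 95% interval 0.098 to 0.90), which is a fold of 1.07 to 1.87. The difference did not pass limma adjusted over the 323 expressed miRNAs (unadjusted p = 0.0208, adjusted p = 0.67), and the 2-sided exact permutation test gave p = 0.10, the smallest that 3 arrays against 3 allow. In bulk samples, more cells with the miRNA and more of it per cell cannot be told apart.

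MiR-23b-3p, its paralog in the MIR23B cluster, had signals of 244, 255 and 132 on the control arrays and of 206, 370 and 376 on the TGF-β arrays. Control array 3 and TGF-β array 1 were low in their groups, and TGF-β array 1 lay below 2 of the 3 control arrays. The means were 210 ± 68.0 (SD, n = 3) in control cells and 317 ± 96.8 (SD, n = 3) with TGF-β. The ratio of 1.51 was the only one among the 5 detected members above 1.5, the threshold of the study, against 4.64% of the expressed miRNAs above it. It was 1.27 without control array 3, 1.38 without TGF-β array 2, 1.34 without TGF-β array 3 and 0.933 within the chip of the controls, where TGF-β array 1 is the only treated one. The log2 difference was 0.60 (SE 0.34, 95% interval -0.17 to 1.37; limma adjusted p = 0.81; exact permutation p = 0.30). No member lay below 0.67, the lower threshold, against 2.79% of the expressed miRNAs.

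MiR-27a-3p, encoded next after miR-23a, had signals of 118, 137 and 135 on the control arrays and of 130, 124 and 178 on the TGF-β arrays. TGF-β array 3 stood above the other 5 arrays, and the other TGF-β arrays lay within the range of the controls. The means were 130 ± 10.3 (SD, n = 3) and 143.9 ± 29.8 (SD, n = 3), a log2 difference of 0.13 (SE 0.21, 95% interval -0.35 to 0.60), which includes folds from 0.785 to 1.52. The test was not passed (limma adjusted p = 0.99, exact permutation p = 0.70), and without TGF-β array 3 the log2 difference was -0.082.

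MiR-27b-3p, the paralog of miR-27a-3p, had signals of 52.0, 47.3 and 56.5 on the control arrays and of 49.7, 59.6 and 69.6 on the TGF-β arrays. TGF-β array 3 was again the highest, and TGF-β array 1 lay among the controls. The means were 51.9 ± 4.61 (SD, n = 3) and 59.6 ± 9.95 (SD, n = 3), a log2 difference of 0.19 (SE 0.20, 95% interval -0.27 to 0.65; limma adjusted p = 0.99; exact permutation p = 0.30). Without TGF-β array 3 it was 0.026.

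MiR-24-3p, which both clusters encode, had signals of 156, 163 and 104 on the control arrays and of 145.2, 182 and 200 on the TGF-β arrays. As for miR-23b-3p, control array 3 and TGF-β array 1 were the lowest of their groups, and the groups overlapped through TGF-β array 1. The means were 140.9 ± 31.9 (SD, n = 3) and 176 ± 27.9 (SD, n = 3), a log2 difference of 0.33 (SE 0.24, 95% interval -0.21 to 0.88; limma adjusted p = 0.97; exact permutation p = 0.30). Leaving out control array 3 gave 0.13, and leaving out TGF-β array 3 gave 0.19.

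**Figure D2:**
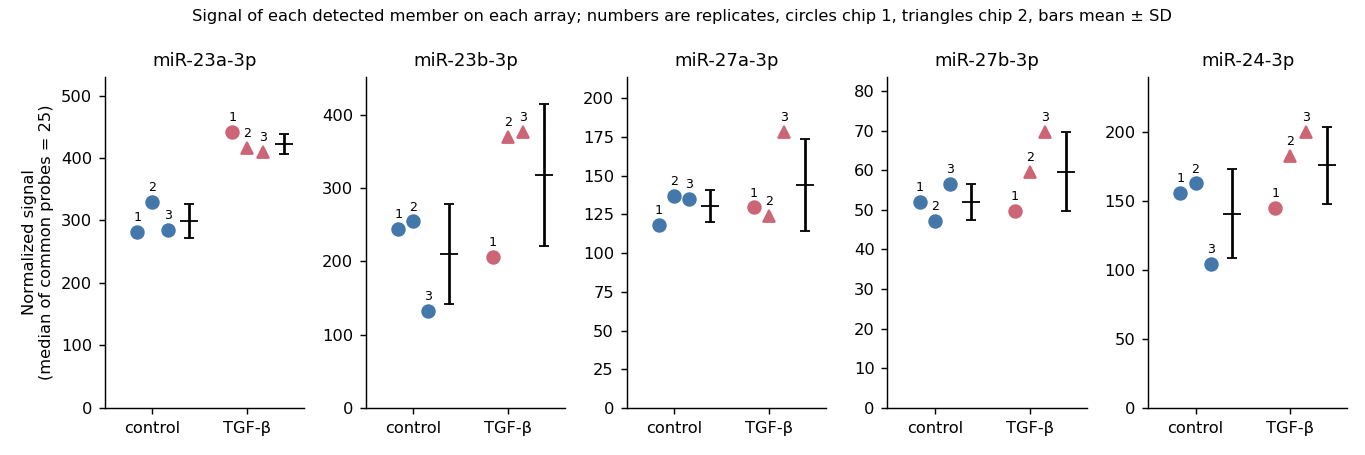
Normalized signal (y axis, from 0, with the median of the common probes at 25) of the 5 detected members on each array, with control arrays in blue and TGF-β arrays in red, numbers for replicates, circles for the chip that holds the controls and triangles for the other chip, and black bars for mean ± SD of 3 arrays. For miR-23a-3p the TGF-β arrays lie at 410 to 441 and the control arrays at 282 to 330, and for the other 4 members the groups overlap.

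By limma with adjustment over the 323 expressed miRNAs, 0 of the 5 detected members passed, against 0% of all expressed miRNAs, for which the smallest adjusted p was 0.43. At an unadjusted p under 0.05, 1 of the 5 members was counted, miR-23a-3p, against 6.50% of the expressed miRNAs, and the methods' test, run on the same values, gave 1 call after adjustment, which was not a member. The groups did not overlap, with TGF-β higher, for 1 of the 5 members, against 7.12% of the expressed miRNAs. The log2 difference was above 0 for 5 of 5 members, against 51.1% of the expressed miRNAs, and its median was 0.33 over the members and 0.01 over the expressed miRNAs. Without TGF-β array 3, 4 of 5 members lay above 0 and their median was 0.19. Under the authors' values and under scaling on the probes that each array detected, 3 of 5 lay above 0, and under quantile normalization 4 of 5. In this order, the median over all miRNAs tested was -0.27, -0.20 and -0.0091, so 0 was not always the middle of all changes. The members' median lay 0.34, 0.32 and 0.27 above it, against 0.32 with the scaling of the report. Shares of all miRNAs above 0 were not counted in these settings. These members share arrays, transcripts and near-identical targets and are not independent of each other, so no test was made over them. Of the 323 expressed miRNAs, 12 had a larger log2 difference than miR-23b-3p, 19 than miR-23a-3p, 44 than miR-24-3p, 74 than miR-27b-3p and 91 than miR-27a-3p.

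**Figure D3:**
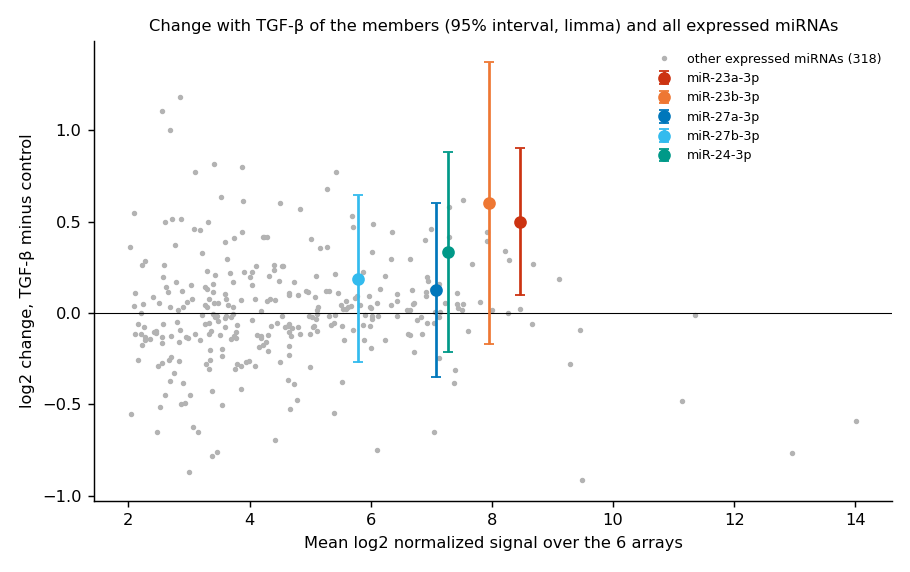
Log2 difference between TGF-β and control (y axis) against the mean log2 normalized signal over the 6 arrays (x axis) for the 323 expressed miRNAs, with the 5 detected members coloured and given with 95% intervals from limma. The members lie above 0, at 0.13 to 0.60, and the interval of miR-23a-3p alone does not reach 0.

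The members differed in how closely the arrays of a group lay together. On the log2 scale, the SD within groups was 0.098 for miR-23a-3p, and 14 of the 292 miRNAs detected on all arrays had a smaller one. The SD was 0.19 for miR-27b-3p, 0.22 for miR-27a-3p and 0.30 for miR-24-3p, around the median of 0.28 over the 292 miRNAs. It was 0.51 for miR-23b-3p, and 255 of the 292 miRNAs had a smaller one. On control array 3 and TGF-β array 1, miR-23b-3p deviated from its group mean by -0.61 and -0.57 and miR-24-3p by -0.41 and -0.26, whereas miR-23a-3p deviated by -0.067 and 0.064.

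Control array 3 and TGF-β array 1 also had low local background relative to spot brightness for the detected members other than miR-23a-3p. The local background, divided by the brightness of the spot, was 0.735 on control array 3 and 0.386 on TGF-β array 1 for miR-23b-3p and 1.10 to 1.34 on the other 4 arrays. For miR-24-3p it was 0.574 and 0.562 on those arrays and 0.862 to 1.27 on the others, and for miR-23a-3p it was 0.922 and 0.928 against 0.686 to 1.10. MiR-27a-3p and miR-27b-3p had low quotients on control array 3 as well, of 0.413 and 0.535, and their signals there deviated from the group means by 0.057 and 0.13, upwards. On TGF-β array 1, their quotients were 0.528 and 0.346 and their deviations -0.13 and -0.25. MiR-27a-3p also had a quotient of 0.561 on TGF-β array 3, where its signal was highest and deviated by 0.33. The brightness of the spot is the divisor of the quotient, and how quotient and signal relate was not tested. Over 77 other miRNAs of like brightness, the median of this quotient was 0.537 on control array 3, 0.756 on TGF-β array 1 and 0.785 to 1.03 on the others. The local background was not subtracted for the values above. When it was, by normexp with an offset of 50, the log2 difference was 0.44 for miR-23a-3p, 0.30 for miR-23b-3p, 0.38 for miR-24-3p, 0.50 for miR-27a-3p and 0.21 for miR-27b-3p, and no member passed the adjusted p. On control arrays 1 and 2 and TGF-β array 2, the local background exceeded the spot for 4 of the 5 detected members. On TGF-β array 3 it did so for 2. Plain subtraction would leave such spots below 0, so their corrected values rest on the model and the offset. All 8 members are printed in row 1 of 8 different blocks of the array, where 12.5% of the human probes are printed.

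Ratios between members on the same array, which a scaling of the whole array leaves unchanged, were used to ask whether members of a pair changed unequally. Of 11 pairs (paralogs, members of 1 transcript, and arms of 1 hairpin), 8 had both members detected on all arrays. The groups overlapped in all 8 pairs. Adjusted over the 8 pairs, the 2-sided exact permutation p was 0.80 in 7 pairs and 0.90 in the pair of miR-24-3p and miR-27b-3p, in a design that cannot go below an unadjusted 0.10. Unequal change was thus not shown for any pair, and the intervals of the differences, which assume a normal spread within groups, are wide.

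For miR-23a-3p over miR-27a-3p, which share a transcript, the log2 ratio was 1.25, 1.27 and 1.07 on the control arrays, against 1.77, 1.74 and 1.204 on the TGF-β arrays. TGF-β array 3 lay within the range of the controls, and the other TGF-β arrays lay above it. The difference was 0.37 (95% interval -0.17 to 0.91; exact permutation p = 0.30), so that the changes of these 2 members of 1 transcript were not shown to differ.

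For the paralogs miR-23a-3p and miR-23b-3p, the log2 ratio was 0.21, 0.37 and 1.11 on the control arrays, against 1.10, 0.17 and 0.13 on the TGF-β arrays. The high ratios were those of control array 3 and TGF-β array 1, 1 in each group. The difference was -0.10 (95% interval -1.27 to 1.07). For miR-27a-3p over miR-27b-3p, it was -0.062 (95% interval -0.48 to 0.35).

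Within the MIR23B cluster, the difference between groups was 0.41 for miR-23b-3p over miR-27b-3p (95% interval -0.73 to 1.55). For miR-24-3p, it was -0.17 over miR-23a-3p (-0.85 to 0.51), 0.21 over miR-27a-3p (-0.54 to 0.96), -0.27 over miR-23b-3p (-0.79 to 0.26) and 0.14 over miR-27b-3p (-0.62 to 0.91). All 5 intervals included 0.

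**Figure D4:**
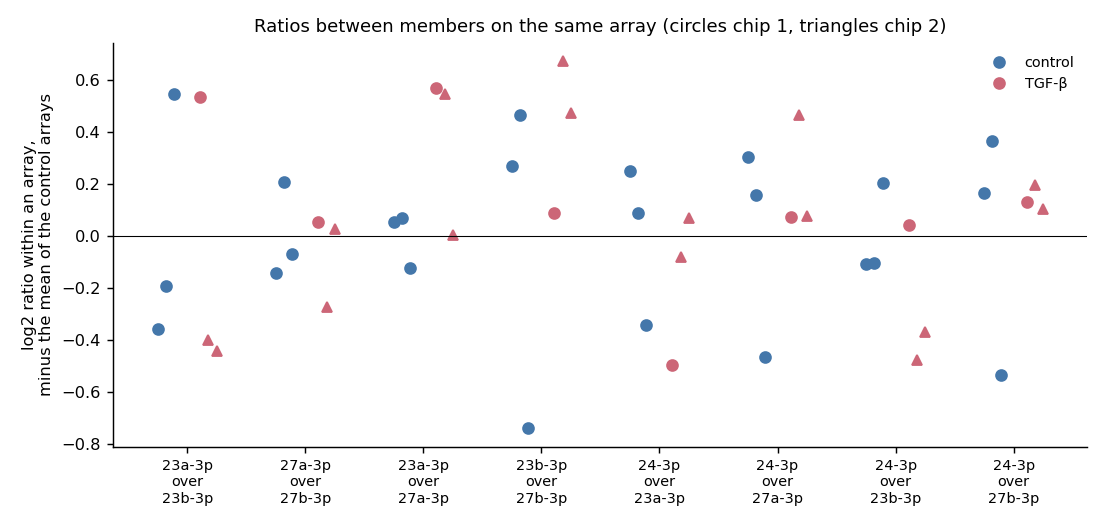
Log2 ratio of 2 members on the same array, minus its mean over the control arrays (y axis), for 8 pairs (x axis), with control arrays in blue, TGF-β arrays in red, circles for the chip that holds the controls and triangles for the other chip. The groups overlap in every pair, and for miR-23a-3p over miR-23b-3p 1 array of each group stands above the rest.

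Both groups are numbered 1 to 3, and the difference between arrays of the same number was taken as well. For miR-23a-3p the log2 difference was 0.64, 0.33 and 0.53 for replicates 1, 2 and 3, above 0 in all 3 pairs. For miR-23b-3p it was -0.25, 0.54 and 1.51, and for miR-24-3p -0.10, 0.16 and 0.94, so that the pair with control array 3 gave the largest difference of both. MiR-27a-3p differed by 0.13, -0.15 and 0.40 and miR-27b-3p by -0.066, 0.33 and 0.30.

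Within the chip of the controls, where 1 TGF-β array stands against 3 control arrays, the log2 difference was 0.49 for miR-23a-3p (limma adjusted p = 0.59, with the lone array assumed to vary like the controls). There it was -0.044 for miR-23b-3p, -0.00080 for miR-24-3p, -0.077 for miR-27a-3p and -0.13 for miR-27b-3p. With the scaling of the report, miR-23a-3p was thus higher on the 1 TGF-β array of the chip as well as over all arrays. In the authors' values, that array was at 590, below control array 1 at 744 and above control arrays 2 and 3 at 479 and 517. The higher mean of miR-27b-3p came from TGF-β arrays 2 and 3 and that of miR-27a-3p from TGF-β array 3 alone. For miR-23b-3p and miR-24-3p, TGF-β arrays 2 and 3 were high, and control array 3, on the chip of the controls, was low. Without control array 3, their log2 differences were 0.29 and 0.13. TGF-β arrays 2 and 3 lie on a chip that holds no control, where the treatment and the chip cannot be told apart. Within the chip of the controls, 1 of the 5 members lay above 0, and the median of the members was -0.040 relative to that of all miRNAs tested. With the chip as a fixed block, 3 of 5 lay above 0, and this quantity was -0.016. The plot of changes over settings shows this beside the other ways of processing.

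**Figure D5:**
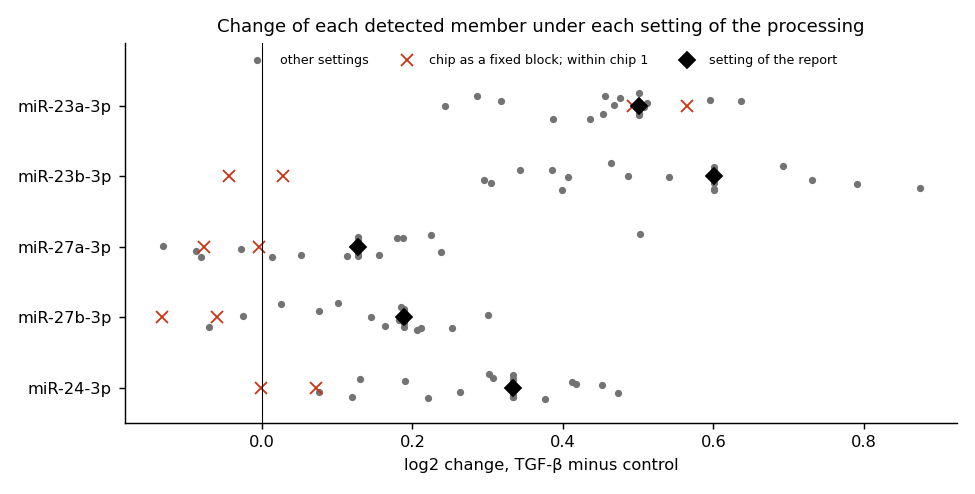
Log2 difference between TGF-β and control (x axis) of the 5 detected members under the processing of the report (black diamonds), under other settings (grey points, spread vertically for sight) and with the chip as a fixed block or within the chip of the controls (red crosses). MiR-23a-3p stays above 0 throughout, from 0.24 to 0.64, and the red crosses of the other 4 members lie near 0, from -0.13 to 0.07.

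The authors' own normalized values gave smaller ratios. In them, only listed miRNAs have a value, between 346 and 507 per array, and the median of those values is 25. MiR-23a-3p was listed at 744, 479 and 517 on the control arrays, against 590, 920 and 562 on the TGF-β arrays, with overlapping groups and a ratio of 1.19 (exact permutation p = 0.50). The ratios were 1.28 for miR-23b-3p, 1.04 for miR-24-3p, 0.952 for miR-27b-3p and 0.914 for miR-27a-3p, with overlapping groups for all 5 members. The 3 members from the 5′ arms were not listed for any array. In this scaling the median log2 difference of all miRNAs tested was -0.27, against 0.01 above, and the median of the members lay 0.34 above it, against 0.32 above and 0.17 without TGF-β array 3.

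Other miRNAs encoded at or near the clusters were at or under detection. MiR-3074, from the opposite strand of MIR24-1, was detected on no array in either arm. The pair MIR181C and MIR181D, which lies 38040 bases from the MIR23A cluster on the opposite strand within NANOS3, gave miR-181d-5p on TGF-β array 2 alone, at 3.96, and its other 3 mature strands on no array.

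Among seed relatives, miR-23c, encoded on the X chromosome, was detected on all 6 arrays and is shown for its closeness to the miR-23 members, with the seed in capitals.
miR-23c: aUCACAUUgccagugauuaccc

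It differs from miR-23a-3p by G14U and U19A and from miR-23b-3p by G14U and A22C. Whether the probe of miR-23c also binds these members was not tested. The signals of miR-23c were 13.1, 14.2 and 9.07 on the control arrays, against 12.9, 11.1 and 9.23 on the TGF-β arrays, with overlapping groups. The means were 12.1 ± 2.71 (SD, n = 3) and 11.1 ± 1.82 (SD, n = 3), a log2 difference of -0.12 (SE 0.24, 95% interval -0.67 to 0.42; limma adjusted p = 0.99). MiR-128-3p, whose seed CACAGUG is offset by 1 base from that of miR-27, was detected on control array 1 alone, at 2.27. MiR-9985, which shares the seed of miR-27, had no probe among those analysed.

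The 5 miRNAs whose signals followed the mean of the detected members most closely over the 6 arrays were miR-629-3p, miR-99a-5p, let-7b-5p, let-7a-5p and miR-26a-5p, with Pearson's r between 0.961 and 0.983, given as a description because they were selected for it and share the arrays and the scaling. Their ratios were 1.36 to 1.78, and their limma adjusted p-values lay between 0.69 and 0.88. All 5 had their lowest signal on control array 3 and their highest on TGF-β array 3.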

How the data were processed

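The members, gene lists, pairs and tests were chosen with earlier results of these data known. For each array the authors deposited the scanner output, in which the intensity of each spot is the median over its pixels on a linear scale without normalization, and a table of normalized intensity, in which they adjusted the median of each array to 25 and left other miRNAs empty; the rule for listing a miRNA is not given in the sources used here. Groups were taken from the labels.

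The average of the 229 blank spots of each array was subtracted, a probe was detected above 2 SD of them, arrays were scaled to a median of 25 over the 292 common probes, undetected signals were raised to the smallest detected one on their array, and log2 was taken. Control spots and 0 to 2 failed probes per array were left out. Groups were compared with limma 3.58.1 (R 4.3.3) over 323 expressed miRNAs with Benjamini-Hochberg adjustment at 0.05. Single members and pairs were compared by exact permutation over all splits of the arrays. The intervals of the pair differences used the t distribution (scipy 1.17.1). The limma step was tested on simulated data. Ratios are of arithmetic means. The miRNAs named are the 8 members, their cluster neighbours, seed relatives, cell type markers and the 5 of most similar pattern.

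Deviations from the group means of same-numbered arrays correlated by 0.12, 0.24 and 0.33 (over 322 miRNAs, not independent). These weak correlations do not show a pairing, which was assumed for the replicate block, and no source says what a number marks. In all, 21 other settings were tried: other backgrounds, scalings, filters and tests, blocks for replicate and chip, and leaving out each array. Depth does not apply to arrays; their number limits the precision.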

Additional observations from a re-analysis of the deposited data

How the results depend on the processing

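No member passed the adjusted p under any of the 21 other settings. MiR-23a-3p kept its direction in all 21 (log2 0.24 to 0.64, adjusted p 0.25 to 0.999), miR-23b-3p and miR-24-3p in 20, miR-27b-3p in 17 and miR-27a-3p in 15. These counts include settings that could not turn a direction. The other detection filters, not raising undetected signals, the other tests and the replicate block left each member's log2 difference unchanged. With the replicate block, the adjusted p was 0.46 for miR-23a-3p, 0.49 for miR-23b-3p and 0.79 for miR-24-3p, and it changed no call. The authors' values turned miR-27a-3p to -0.13 and miR-27b-3p to -0.071 and moved the members' median to 0.076. Scaling each array on the probes it detected itself gave -0.088, -0.026 and 0.12 for these, and quantile normalization gave -0.028 for miR-27a-3p. The median of all miRNAs tested was -0.27 in the authors' values and -0.20 with scaling on each array's own probes. With the chip as a fixed block, miR-27a-3p was -0.0047, miR-27b-3p -0.060 and the median 0.028. Within the chip of the controls, miR-23b-3p was -0.044, miR-24-3p -0.00080, miR-27a-3p -0.077, miR-27b-3p -0.13 and the median -0.044. The count of ratios above 1.5, which was 1 in the report, became 0 in these settings except the block, and with the 75th percentile. A block does not enter the ratio of means, so the count of 1 was fixed there. With the chip as a fixed block, the log2 difference of miR-23b-3p was 0.028. The count became 2 with normexp on the local background or, chosen after the data were seen, on the blank spots. Leaving out 1 array gave 0 (control 3, TGF-β 2 or TGF-β 3) to 2 (control 2), and -0.082 (TGF-β 3) to 0.23 for miR-27a-3p, which reached 0.50 with normexp on the local background. That background exceeded the spot for most detected members on some arrays.

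Pairs without overlap, 0 in the report, numbered 2 within the chip of the controls and 0 to 3 on leaving out 1 array (3 without TGF-β 1, 1 without control 3 or TGF-β 3). Groups of fewer arrays fail to overlap more easily by the order of the arrays alone. No share over other pairs was counted, so these counts do not show that a pair changed unequally. Pair differences turned direction as follows: miR-23a-3p over miR-23b-3p was 0.13 with normexp on the local background, 0.54 within the chip, 0.17 without control 3, 0.049 without TGF-β 2 and 0.070 without TGF-β 3 (lowest on leaving out 1 array, -0.42); miR-27a-3p over miR-27b-3p was 0.29, 0.056 and 0.031 with normexp on the local background, within the chip and with normexp on the blank spots, 0.043 without control 2 and 0.042 without TGF-β 2; miR-24-3p over miR-23b-3p was 0.071 and 0.043 in the first 2 of these. With normexp on the local background, miR-23a-3p over miR-27a-3p was -0.066 and miR-24-3p over miR-27a-3p -0.13. Without control 3, miR-24-3p over miR-27a-3p was -0.025 (highest on leaving out 1 array, 0.36) and over miR-27b-3p -0.12 (highest, 0.33). The causes were not tested. Scaling on all human probes gave no value, since the blank spots averaged more than the median probe, which lay at -19.30 to -2.899 in brightness relative to them.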
